A study of Rattus norvegicus with 50 samples.

Results

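ENSRNOG00000019481 and ENSRNOG00000002602 are 2 Ensembl rat gene IDs, out of 32545 in the deposited table, that were well expressed in the kidney medulla of lean rats and low in the medulla of obese rats. They were chosen by that difference: among 14195 IDs tested in medulla they had the largest and the next largest falls from lean vehicle to obese vehicle. The medulla levels of those groups, and the comparison of treated medulla with the same obese vehicle libraries, are therefore given as description without a test. Tests are given for the cortex, for the treatments against each other in medulla, and for medulla against cortex in treated obese rats.

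The renal medulla is the inner zone of the kidney, where loops of Henle, collecting ducts and the vasa recta build and keep the salt and urea gradient that concentrates urine. Its cells work at high tonicity and low oxygen, and their transcriptome differs widely from that of the cortex, which holds the glomeruli and the proximal tubules. The deposited table carries IDs only and no Ensembl ID is listed in the gene reference used here, so neither ID is given a gene name, a function or a sequence.

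Stranded total RNA libraries were made from the cortex and the medulla of kidneys of ZSF1 rats, a strain whose obese animals develop metabolic syndrome and kidney disease, in 10 groups of 5 libraries. The only lean group was given vehicle. The obese groups were given vehicle, enalapril at 10 mpk (the labels' dose unit; the drug inhibits angiotensin-converting enzyme), or MK-8722, a direct activator of AMP-activated protein kinase, at 1 or 10 mpk. Treatment lasted 28 weeks per the labels, which also list an age of 20 weeks, so the time to which that age belongs is unclear. Since no label ties a library to an animal, each p-value reflects the spread among libraries, which may be partly technical. The tissue labels could not be checked against named cell type markers.

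Levels are FPKM, the number of fragments of an ID divided by its transcript length and by the mapped fragments of its library. Sequencing depth is not given, but 94.3% of 58212 low FPKM values were whole multiples, within 0.1, of a step taken as 1 read, and the step size gave a relative depth of 0.599 to 1.53 across the 50 libraries. Relative depth was 1.13 ± 0.0773 (SD, n = 5) in lean medulla and 0.727 ± 0.0816 (SD, n = 5) in obese vehicle medulla, so low values are the less precise in obese medulla.

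In lean medulla, ENSRNOG00000019481 was at 23.0, 33.8, 25.6, 32.7 and 22.4 FPKM in replicates 1, 3, 5, 6 and 7. Its mean was 27.5 ± 5.39 FPKM (SD, n = 5), above 85.8% of the IDs tested in medulla. ENSRNOG00000002602 was at 24.96, 25.6, 23.4, 23.2 and 22.03 FPKM in the same libraries, with a mean of 23.8 ± 1.45 FPKM (SD, n = 5), above 83.5% of the IDs. The lean libraries thus lay close together for the latter ID and spread more widely for the former, with coefficients of variation of 6.08% and 19.6%.

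In obese vehicle medulla, ENSRNOG00000019481 was at 1.05, 0.555, 2.12, 0.222 and 0.0900 FPKM in replicates 3, 4, 5, 6 and 7, a mean of 0.808 ± 0.821 FPKM (SD, n = 5). ENSRNOG00000002602 was at 1.77, 0.818, 1.40, 1.13 and 0.212 FPKM, a mean of 1.07 ± 0.593 FPKM (SD, n = 5). Replicate 7 was lowest for both IDs. Every obese vehicle library lay below every lean library for both. In these bulk samples, fewer cells of a type and less RNA per cell cannot be told apart.

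These means were 2.94% and 4.48% of the lean means, a lean level 34.0 and 22.3 times as high. On log2(FPKM + 0.5), the scale of every log2 fold change here, which understates changes of low genes, the differences were -4.61 ± 0.305 (SE) for ENSRNOG00000019481 and -4.06 ± 0.362 (SE) for ENSRNOG00000002602. The median difference of all 14195 IDs was 0.37, 10.9% of IDs were called lower by limma at an adjusted p under 0.05, and 8.42% were lower with no overlap between the groups. Those shares depend on the scaling: after dividing every library by the median of its ratios to the geometric mean of each ID, the median was 0.01, 26.5% of IDs were called lower and 26.9% higher (56.8% higher as deposited), and the differences of the pair were -4.91 and -4.38. The third largest fall was -3.67 and the tenth -2.84, so the pair sat at the end of a thin tail: 34 IDs lay below -2 and 7 below -3.

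For ENSRNOG00000019481 the values can also be read as reads, because all 44 of its 44 values above 0 were whole multiples of 1 step within 0.1 of a step. Its lean medulla libraries then held 422 to 741 reads each, 2883 in all. The obese vehicle libraries held 1 to 32 each, 58 in all, equal to 0.860 FPKM with an exact 95% Poisson interval of 0.653 to 1.11 FPKM, which covers counting error only. The spread among obese vehicle libraries was therefore measured on few reads. For ENSRNOG00000002602 only 76.2% of 21 low values were whole on its step, so no reads are given for it.

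The separation from lean medulla extended over every obese treatment. The lowest lean value was 5.64 times the highest of the 20 obese medulla values for ENSRNOG00000019481 and 5.19 times for ENSRNOG00000002602. All 5 lean values lay above all 20 obese values for 548 IDs (3.86%), and 3 IDs did so by at least 4 times.

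**Figure D1:**
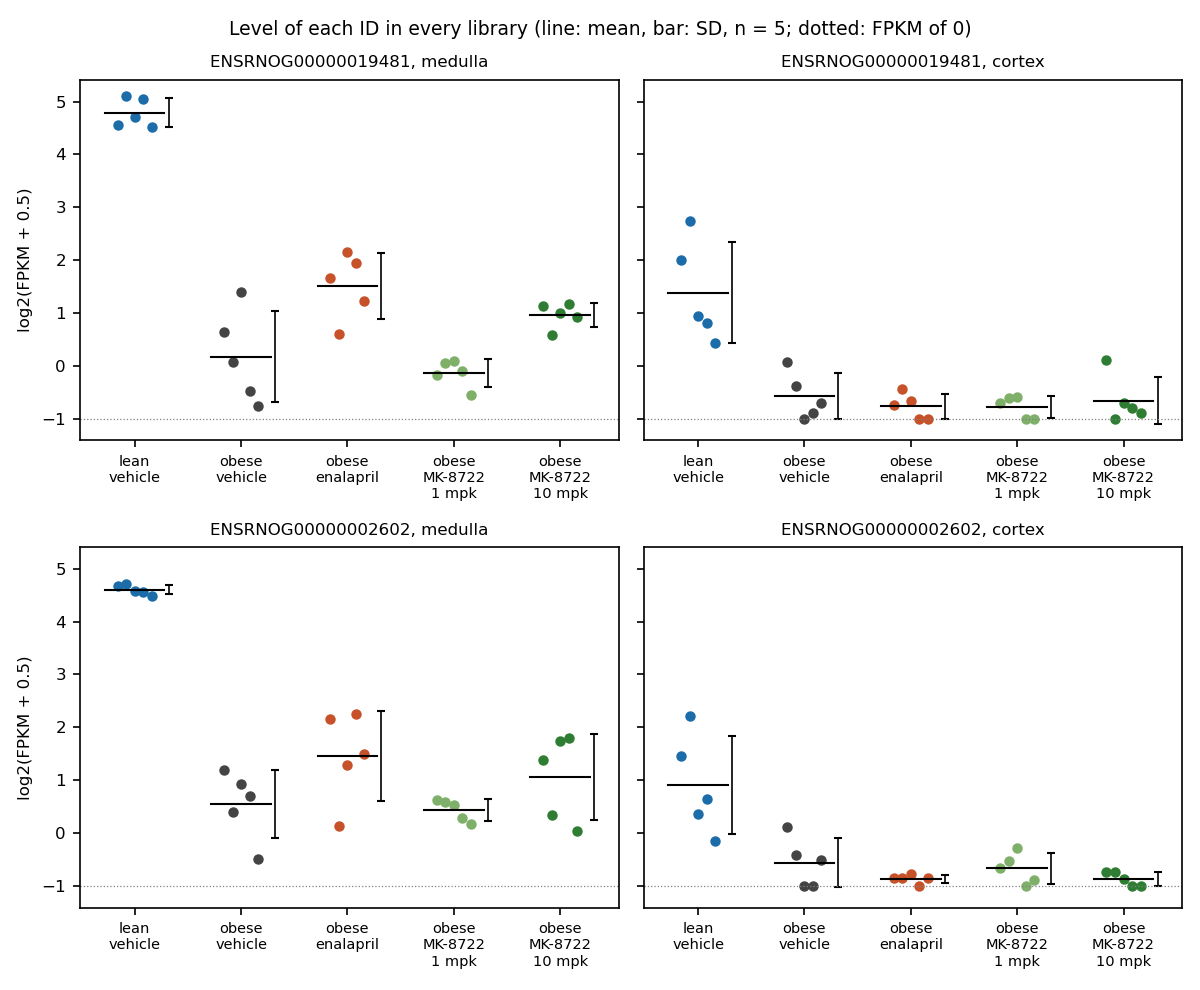
Level of each ID in all 50 libraries as log2(FPKM + 0.5), by tissue and treatment; points are libraries, lines and bars are group means and SD on that scale (n = 5), and the dotted line marks an FPKM of 0. The lean medulla libraries (22.03 to 33.8 FPKM) stand above all others, and the highest obese library of either ID reached 4.25 FPKM.

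Under enalapril, ENSRNOG00000019481 was at 2.67, 1.01, 3.97, 3.34 and 1.83 FPKM in medulla replicates 2, 3, 5, 6 and 7, a mean of 2.56 ± 1.18 FPKM (SD, n = 5). ENSRNOG00000002602 was at 3.94, 0.593, 1.93, 4.25 and 2.32 FPKM, a mean of 2.61 ± 1.504 FPKM (SD, n = 5). Replicate 3 was the lowest enalapril library for both IDs, and the enalapril values overlapped those of obese vehicle for both.

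At 1 mpk of MK-8722, ENSRNOG00000019481 was at 0.385, 0.538, 0.565, 0.431 and 0.177 FPKM in replicates 1, 2, 4, 6 and 7, a mean of 0.419 ± 0.154 FPKM (SD, n = 5). ENSRNOG00000002602 was at 1.05, 0.996, 0.949, 0.711 and 0.625 FPKM, a mean of 0.866 ± 0.187 FPKM (SD, n = 5). These libraries lay within the range of obese vehicle for both IDs.

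At 10 mpk of MK-8722, ENSRNOG00000019481 was at 1.68, 1.01, 1.49, 1.74 and 1.40 FPKM in replicates 1, 2, 3, 5 and 6, a mean of 1.46 ± 0.290 FPKM (SD, n = 5). ENSRNOG00000002602 was at 2.10, 0.762, 2.85, 2.999 and 0.525 FPKM, a mean of 1.85 ± 1.15 FPKM (SD, n = 5). For the latter ID the libraries divided into 3 at 2.10 FPKM or more and 2 at 0.762 FPKM or less, while the former stayed within a narrow range.

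Set against lean medulla, each treated group remained low. Enalapril means were 9.34% and 10.9% of the lean means for ENSRNOG00000019481 and ENSRNOG00000002602, MK-8722 at 10 mpk 5.33% and 7.75%, and MK-8722 at 1 mpk 1.53% and 3.63%. Of the gap in mean FPKM between lean and obese vehicle, the enalapril mean covered 6.59% and 6.75%, the 10 mpk mean 2.46% and 3.42%, and the 1 mpk mean -1.46% and -0.884%, the minus sign marking a mean below obese vehicle.

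The log2 fold changes against obese vehicle share its libraries with the choice of the IDs, and the 3 comparisons share them with each other. They were 1.34 ± 0.305 (SE) and 0.92 ± 0.362 (SE) under enalapril, where 1.57% of IDs were called higher and 9.06% lower (2.27% and 1.83% after rescaling). The share called in either direction, 10.6%, was 0.0493% without obese vehicle replicate 7 and 16.5% without enalapril replicate 3. At 10 mpk of MK-8722 they were 0.79 ± 0.305 (SE) and 0.51 ± 0.362 (SE), where 1.60% were called higher and 16.5% lower (3.12% and 2.15% after rescaling). The share in either direction, 18.1%, was 7.26% without obese vehicle replicate 7. At 1 mpk they were -0.31 ± 0.305 (SE) and -0.11 ± 0.362 (SE), and the latter was 0.053 without obese vehicle replicate 3. In that comparison limma called no ID at an adjusted p under 0.05, so 0% were called, and 577 of 14195 had an unadjusted p under 0.05.

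**Figure D2:**
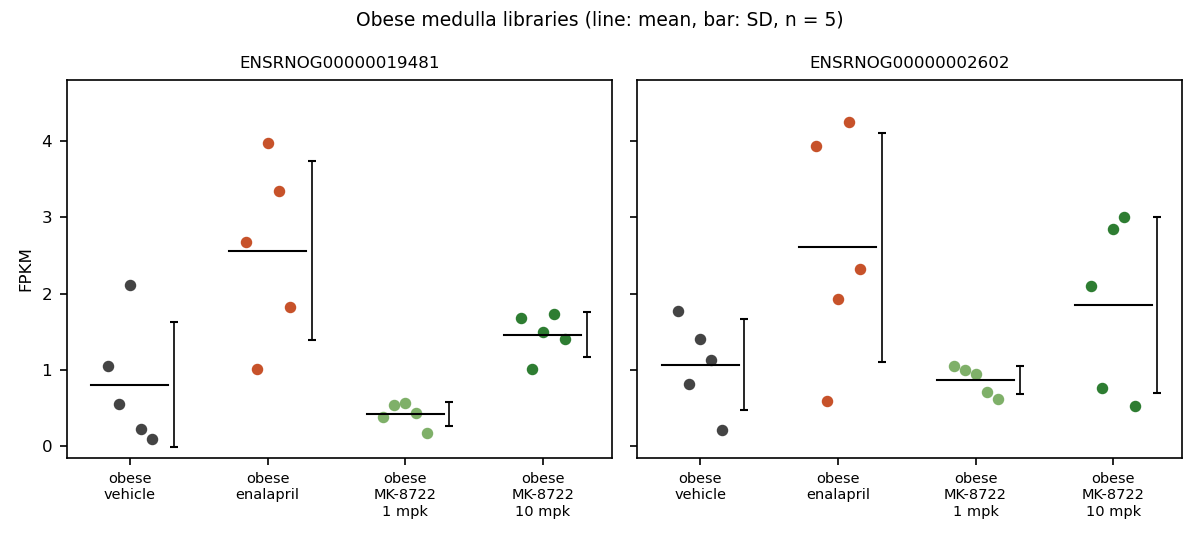
FPKM of each ID in the obese medulla libraries by treatment, with lines at the group means and bars of 1 SD (n = 5). The enalapril means (2.56 and 2.61 FPKM) are the highest of the 4 obese groups, and enalapril values overlap those of obese vehicle for both IDs.

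Tested against each other in medulla, the treatments differed for ENSRNOG00000019481 in 2 of 3 comparisons and for ENSRNOG00000002602 in none. ENSRNOG00000019481 was lower at 1 mpk of MK-8722 than under enalapril by a log2 fold change of -1.66 ± 0.305 (SE; limma, two-sided, Benjamini-Hochberg adjusted p = 0.00874), with all 5 values below all 5. In this comparison 2.78% of IDs were called lower and 1.90% were lower without overlap. After rescaling 3.87% were called lower, and the difference was -1.68 (adjusted p = 0.00864). The call held without any 1 of the 10 libraries.

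ENSRNOG00000019481 was also higher at 10 than at 1 mpk, by 1.10 ± 0.305 (SE; limma adjusted p = 0.0366), again with no overlap. Here 1.02% of IDs were called higher. A share of 4.76% had no overlap in either direction, most of it lower at 10 mpk (3.86% of all IDs). After rescaling 1.69% were called higher (1.13% lower, against 4.90% lower as deposited), and the difference was 1.16 (adjusted p = 0.0345). This call rested close to the threshold: it was lost without any 1 of 7 of the 10 libraries (adjusted p up to 0.103), with no filter on low values (0.0645) and with relative depth as a term (0.0608).

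For ENSRNOG00000002602 the same comparisons pointed the same way without passing the test, and the groups overlapped. The 1 mpk group differed from enalapril by -1.02 (95% interval -1.77 to -0.27; limma adjusted p = 0.0783), and by -1.35 (adjusted p = 0.0132) without enalapril replicate 3. The 10 mpk group differed from 1 mpk by 0.62 (-0.13 to 1.37; adjusted p = 0.285).

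Between MK-8722 at 10 mpk and enalapril at 10 mpk, neither ID passed the test, where 2.73% of IDs were called in either direction. The difference was -0.56 (95% interval -1.19 to 0.07; limma adjusted p = 0.414) for ENSRNOG00000019481 and -0.40 (-1.15 to 0.35; adjusted p = 0.678) for ENSRNOG00000002602. The drugs are not matched in kind, so the equal dose numbers do not make the doses equivalent.

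**Figure D3:**
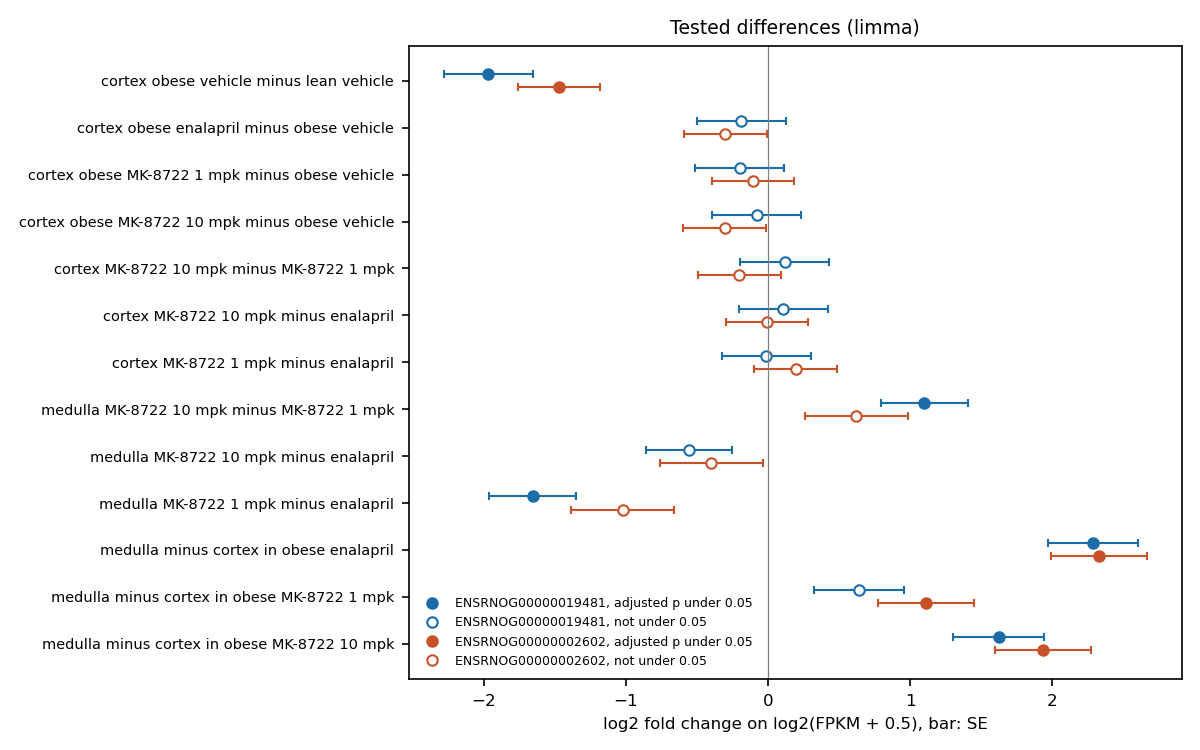
Log2 fold changes on log2(FPKM + 0.5) for each tested comparison and ID, with bars of 1 SE; filled points had a limma adjusted p under 0.05. Both IDs are filled for the cortex of obese vehicle against lean and for medulla against cortex under enalapril and 10 mpk of MK-8722.

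The cortex libraries took no part in choosing the IDs. Any medulla tissue in a cortex sample would, however, bring with it the medulla difference that chose the IDs. Since no label ties a library to an animal, cortex and medulla may also come from the same rats. The comparison of lean and obese vehicle cortex may therefore not be independent of that choice. The part of any medulla tissue in these samples was not tested. In lean cortex, ENSRNOG00000019481 was at 3.52, 6.15, 1.43, 1.25 and 0.855 FPKM in replicates 1, 2, 3, 6 and 7, a mean of 2.64 ± 2.22 FPKM (SD, n = 5). ENSRNOG00000002602 was at 2.23, 4.14, 0.786, 1.07 and 0.403 FPKM, a mean of 1.73 ± 1.51 FPKM (SD, n = 5). Replicates 2 and 1 were the highest for both IDs and replicate 7 the lowest.

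In obese vehicle cortex, ENSRNOG00000019481 was at 0.555, 0.265, 0, 0.0403 and 0.112 FPKM in replicates 1, 2, 3, 5 and 6, a mean of 0.194 ± 0.226 FPKM (SD, n = 5). ENSRNOG00000002602 was at 0.582, 0.245, 0, 0 and 0.197 FPKM, a mean of 0.205 ± 0.239 FPKM (SD, n = 5). A value listed at 0 allows up to 0.106 to 0.150 FPKM for the former ID and 0.125 to 0.177 FPKM for the latter, from 3 reads at the depth of each library. The limit of ENSRNOG00000002602 is approximate, since its step was less regular. None of the 3010 IDs with a median over 20 FPKM was listed at 0 in any library.

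Both IDs fell from lean to obese vehicle in cortex. The log2 fold change was -1.97 ± 0.313 (SE; limma adjusted p = 2.75e-05) for ENSRNOG00000019481, whose groups did not overlap. It was -1.47 ± 0.290 (SE; limma adjusted p = 0.00031) for ENSRNOG00000002602, where lean replicate 7 lay below obese replicate 1. In this comparison 3.73% of 25582 IDs were called lower and 2.49% were lower without overlap. After rescaling 11.4% were called lower and 14.3% higher (31.8% higher as deposited), and the changes of the pair were -2.16 and -1.65. Two-sided exact permutation tests of the same values, unadjusted, gave p = 0.00794, the smallest that 5 against 5 allows, and p = 0.0159. With a term for the 8 cortex libraries whose library numbers lie in a separate higher range, the changes were -2.03 and -1.54.

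Neither ID passed the usual filter of 1 FPKM in 5 libraries in cortex, reaching 1 FPKM in 4 and 3 of 25 libraries, so these tests come from a fit of all IDs with any value above 0. The lean cortex mean was 13.6 and 8.42 times the obese vehicle mean for the IDs in the order named first, both lower ratios than in medulla. That difference between tissues was not tested, since the medulla contrast chose the IDs.

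In the treated obese cortex both IDs stayed under 0.6 FPKM in every library. Means of ENSRNOG00000019481 were 0.0934 ± 0.1002 FPKM under enalapril, 0.0870 ± 0.0821 FPKM at 1 mpk and 0.159 ± 0.236 FPKM at 10 mpk of MK-8722 (SD, n = 5 each). Means of ENSRNOG00000002602 were 0.0492 ± 0.0297, 0.138 ± 0.129 and 0.0480 ± 0.0490 FPKM in the same order. No treated group differed detectably from obese vehicle at this depth. The limma adjusted p ranged from 0.537 to 1 over these 6 tests, and 3.21%, 0.0117% and 11.0% of IDs were called under enalapril, 1 mpk and 10 mpk. These shares were unstable: after rescaling they were 0.219%, 0.00782% and 3.31%. Leaving out obese vehicle replicate 2 gave 0.00391% under enalapril and 4.82% at 10 mpk, and leaving out obese vehicle replicate 5 gave 15.9% and 18.9%. For ENSRNOG00000019481 under enalapril the 95% interval of the log2 difference was -0.83 to 0.46, and for ENSRNOG00000002602 it was -0.90 to 0.30.

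The treatments did not differ detectably from each other in cortex either, with limma adjusted p from 0.687 to 1 over 6 tests. In those comparisons 13.1% of IDs were called between the doses of MK-8722, 4.28% between 10 mpk and enalapril, and 14.8% between 1 mpk and enalapril. After rescaling these shares were 3.93%, 4.59% and 9.06%. The share between the doses was 0.661% with relative depth as a term and 4.24% without 10 mpk replicate 5, and that between 1 mpk and enalapril was 8.74% without 1 mpk replicate 1.

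Both IDs were medulla-high in lean rats, by 10.4 and 13.8 times in mean FPKM, or 3.40 ± 0.319 (SE) and 3.70 ± 0.337 (SE) on the log2 scale, where 28.4% of 14586 IDs were called higher in medulla. In obese vehicle rats the log2 differences were 0.76 and 1.11.

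In treated obese rats the tissue difference could be tested. Under enalapril, medulla exceeded cortex by 2.29 ± 0.319 (SE; limma adjusted p = 9.81e-08) for ENSRNOG00000019481 and 2.33 ± 0.337 (SE; limma adjusted p = 2.20e-07) for ENSRNOG00000002602, where 41.6% of IDs were called higher. At 10 mpk of MK-8722 the differences were 1.62 (limma adjusted p = 4.94e-05) and 1.93 (limma adjusted p = 7.57e-06), where 36.2% were called higher. Calls toward medulla were thus common among all IDs, and rescaling lowered their share to 20.4% under enalapril, 15.4% at 1 mpk and 21.1% at 10 mpk. The differences of the pair were then 2.17 and 2.22 under enalapril and 1.56 and 1.88 at 10 mpk.

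At 1 mpk, where 21.4% of IDs were called higher, ENSRNOG00000002602 passed with 1.11 ± 0.337 (SE; limma adjusted p = 0.00892) and ENSRNOG00000019481 did not, with 0.64 (95% interval -0.0018 to 1.28; limma adjusted p = 0.120). Both of these calls depended on the setting. With relative depth as a term ENSRNOG00000002602 had 0.93 (adjusted p = 0.0653). ENSRNOG00000019481 passed with a pseudocount of 0.1 (1.54, adjusted p = 0.0231) and in a fit of only the 2 groups (adjusted p = 0.0484). In all 3 treatments the medulla and cortex values of both IDs did not overlap. In either direction this held for 35.1% of all IDs under enalapril, 23.6% at 1 mpk and 21.8% at 10 mpk. Those shares include IDs lower in medulla, which were 7.16%, 7.90% and 6.14% of all IDs in the same order.

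The treatment differences found in medulla were not shown to be particular to medulla. Of 6 interactions between tissue and treatment pair, none passed, with limma adjusted p from 0.324 to 0.980. The largest was -1.64 ± 0.451 (SE; limma adjusted p = 0.324) for ENSRNOG00000019481 at 1 mpk against enalapril, where 0.00686% of IDs were called. The other 2 treatment pairs had 0.130% called each.

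The levels of the IDs were correlated among the treated obese medulla libraries. Obese vehicle medulla took part in choosing both IDs, so the test was made on the 15 treated libraries, a set chosen after the data were seen. There the log2 values had Pearson's r = 0.747 (permutation p = 0.00205, adjusted over 2 tissues 0.0041) and Spearman's rho = 0.682 (permutation p = 0.00632, adjusted 0.0126). Without the 2 libraries farthest from the median, MK-8722 1 mpk replicate 7 and enalapril replicate 5, r was 0.784. On deviations from the group means r was 0.649 (permutation p = 0.00897, adjusted 0.0179). Over all 20 obese medulla libraries r was 0.761 and rho 0.726, given as description. How common a correlation of this size is among all IDs was not examined. The other IDs among the 5 most like each ID over all 50 libraries were compared over these 20 libraries. Their r was 0.762 to 0.837 with ENSRNOG00000019481 and 0.587 to 0.867 with ENSRNOG00000002602. A high r is favoured here, since these IDs were picked for likeness over libraries that include the same 20.

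In cortex Pearson's r did not pass the test without the obese vehicle libraries, while Spearman's rho did. Over the 20 obese libraries r was 0.680 (permutation p = 0.0029, adjusted 0.0029) and rho 0.695 (permutation p = 0.00127, adjusted 0.00127), and r was 0.664 without MK-8722 10 mpk replicate 2 and obese vehicle replicate 1. Over the 15 treated libraries r was 0.394 (permutation p = 0.141, adjusted 0.141) and rho 0.582 (permutation p = 0.0251, adjusted 0.0251). Without MK-8722 10 mpk replicate 2 and enalapril replicate 2, r over the treated libraries was 0.679. Values from one library share its dissection and its depth.

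**Figure D4:**
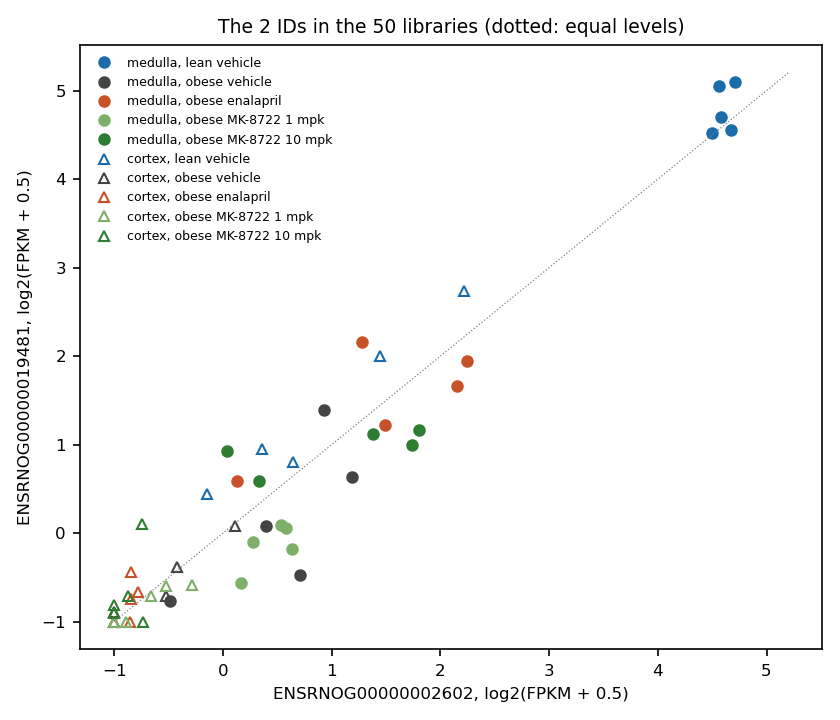
log2(FPKM + 0.5) of ENSRNOG00000019481 against ENSRNOG00000002602 in all 50 libraries, with circles for medulla, triangles for cortex, colors for treatments and a dotted line at equal levels. The 5 lean medulla libraries stand apart at the upper right; over the 20 obese libraries r was 0.761 in medulla and 0.680 in cortex.

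Their ratio varied among libraries. ENSRNOG00000019481 over ENSRNOG00000002602 had a median of 1.09 in lean medulla (0.920 to 1.41) and 1.58 in lean cortex (1.17 to 2.12). In obese medulla the medians were 0.594 under vehicle, 0.789 under enalapril, 0.540 at 1 mpk and 0.8003 at 10 mpk of MK-8722. At 1 mpk the 5 ratios ranged from 0.283 to 0.606. The obese ratios rest on few reads: ENSRNOG00000019481 had 3 to 8 per library at 1 mpk and 1 to 32 in obese vehicle. It also had the larger fall of the 2 IDs in the contrast that chose them, which favours lower ratios in obese vehicle. Whether the ratio differed between groups was not tested.

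By likeness over all 50 libraries (Pearson's r of log2 values, given as a description, since libraries share tissue and genotype), the ID nearest to ENSRNOG00000019481 was ENSRNOG00000032871 with r = 0.965, and next came ENSRNOG00000002602 with r = 0.964. ENSRNOG00000032871 had a mean of 8.57 ± 1.11 FPKM (SD, n = 5) in lean medulla and 0.823 ± 0.485 FPKM (SD, n = 5) in obese vehicle medulla. Its means were 1.64 ± 0.625 FPKM under enalapril, 0.665 ± 0.172 FPKM at 1 mpk and 1.27 ± 0.535 FPKM at 10 mpk (SD, n = 5 each), the same order of treatments. That order is favoured by picking the ID for its likeness over the same libraries.

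For ENSRNOG00000002602 the nearest was ENSRNOG00000019481 and the next ENSRNOG00000018420, with r = 0.963. ENSRNOG00000018420 had a mean of 3.73 ± 0.488 FPKM in lean medulla, 0.458 ± 0.317 FPKM in obese vehicle and 0.941 ± 0.362 FPKM in enalapril medulla (SD, n = 5 each). An r above 0.9 was reached by 48 IDs for ENSRNOG00000019481 and by 68 for ENSRNOG00000002602, out of 14586.

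To describe tissue makeup, 2 lists were drawn from the 40 obese libraries after the data were seen: the 50 IDs highest in medulla over cortex and the 50 highest in cortex over medulla, both without the pair described here. Drawing them from obese libraries favours IDs that stay high in obese medulla. The medulla-high list can therefore miss IDs lost from medulla in obesity. The medulla-high list had a mean log2 level of 4.57 ± 0.20 (SD, n = 5) in lean medulla, with a range of 4.27 to 4.84. In obese vehicle medulla it had 4.40 ± 0.32 (SD, n = 5), with a range of 3.90 to 4.76. The cortex-high list had 3.28 ± 0.36 (SD, n = 5) in lean medulla, with a range of 2.87 to 3.86. It was lower in obese vehicle medulla, at 2.82 ± 0.12 (SD, n = 5), with a range of 2.66 to 2.93. The part of tissue makeup in the difference of the pair between these groups was not tested.

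Under enalapril, replicate 3, the lowest library for both IDs, also had the lowest cortex-high list level of its group, 2.50 against 3.34 to 3.50 in the others. Its medulla-high list level was not low, at 4.61 against 4.16 to 4.95 in the others. The cortex-high list averaged 3.23 ± 0.42 under enalapril, 2.82 ± 0.54 at 1 mpk and 2.51 ± 0.81 at 10 mpk of MK-8722 (SD, n = 5 each). The medulla-high list averaged 4.57 ± 0.28 under enalapril, 4.35 ± 0.20 at 1 mpk and 4.69 ± 0.11 at 10 mpk (SD, n = 5 each). It was lowest at 1 mpk (4.03 to 4.54), the group in which ENSRNOG00000019481 was lower than under enalapril and than at 10 mpk (4.53 to 4.82). The part of tissue makeup in the treatment differences was not tested.

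In lean cortex, replicates 2 and 1 had the highest medulla-high list levels, 2.16 and 1.80, and the highest values of both IDs. Obese vehicle cortex replicate 1 had a higher list level, 2.34, with ENSRNOG00000019481 at 0.555 FPKM, against 6.15 FPKM in lean replicate 2. The mean of this ID in medulla was itself 0.808 FPKM in obese vehicle and 27.5 FPKM in lean rats. A like list level thus does not make these libraries comparable for the ID. The list averaged 1.67 ± 0.33 in lean cortex and 1.57 ± 0.58 in obese vehicle cortex (SD, n = 5 each). The part of the list level in the spread among cortex libraries, or in the cortex fall from lean to obese vehicle, was not tested.

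**Figure D5:**
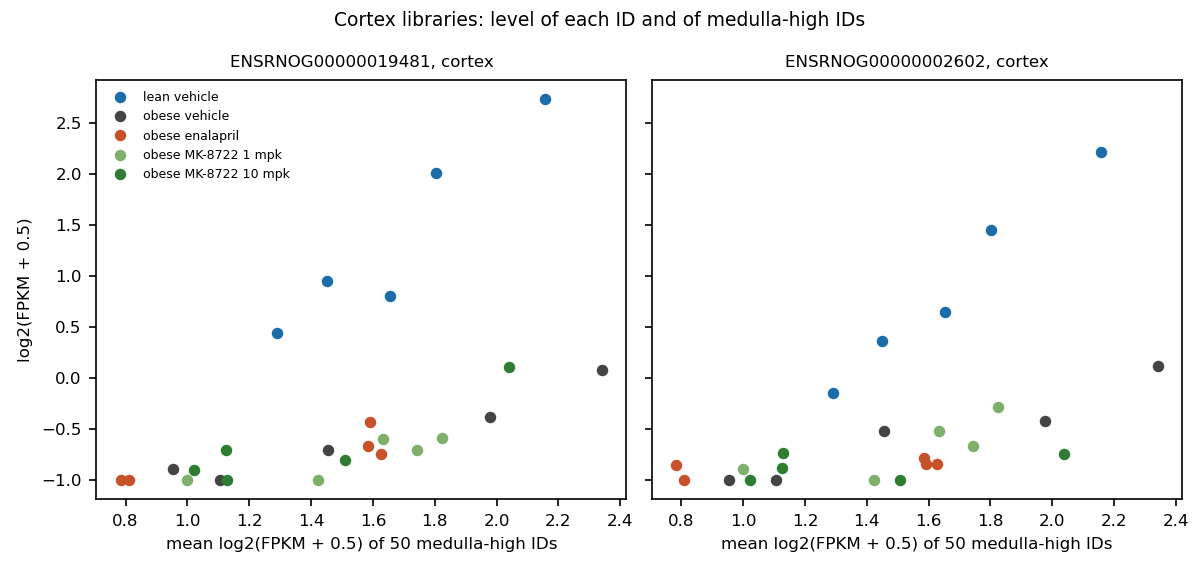
Level of each ID (log2(FPKM + 0.5)) in the 25 cortex libraries against the mean log2 level of 50 medulla-high IDs in the same library, colored by treatment. Obese vehicle replicate 1 has the list at 2.34 and ENSRNOG00000019481 at 0.555 FPKM, while lean replicate 2 has 2.16 and 6.15 FPKM. In medulla the mean of this ID was itself 0.808 FPKM in obese vehicle and 27.5 FPKM in lean rats.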

How the data were processed

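Total RNA of 50 kidney libraries was measured. The authors deposited FPKM values for 32545 IDs, per the file headers. The aligner, counter and build were not given in the sources used here. Per the labels' protocols, ribosomal RNA was removed and 1 µg of RNA entered each stranded library. FPKM are not counts, so limma 3.58.1 (R 4.3.3; trend and robust moderation) was run on log2(FPKM + 0.5), with 1 mean per group, on 25 libraries of a tissue or all 50. IDs with at least 1 FPKM in 5 libraries were tested and p-values adjusted by Benjamini-Hochberg over all of them. The cortex departs from this design: both IDs fail that filter there, so the fit without a filter is reported. Permutation tests of correlations used 100000 resamples drawn with numpy 2.4.6. The exact tests in cortex used scipy 1.17.1 over every split of the libraries. The IDs and lists were chosen with earlier results of these data known. The rule for other named IDs took the 2 most alike by Pearson's r per ID. Named marker lists were not used here, since no symbols were at hand. Scripts were tested on simulated data.

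Replicate numbers recur across groups. Same-numbered libraries deviated together (every r over 0.1 across genes) in 2 of 17 group pairs: cortex obese vehicle with MK-8722 10 mpk (0.222 to 0.373, 3 pairs) and MK-8722 10 mpk cortex with medulla (0.101 to 0.309, 3 pairs). The labels state no pairing. Alternatives were another pseudocount, no filter, median-ratio rescaling, only the compared groups, relative depth or library number range as a term, the replicate block, leaving out each library and, added after seeing the data, correlations over treated libraries only. The exact tests in cortex were also added then.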

Additional observations from a re-analysis of the deposited data

Results flagged for a closer look

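In cortex at 10 mpk of MK-8722, ENSRNOG00000019481 was at 0.575 FPKM in replicate 2 and at 0.113 FPKM or less in the other 4 libraries. The gap to the next library was 0.804 of the group's range, above Dixon's critical value of 0.71 for 5 samples. Chance alone gives about 1 such library in 20 groups if values are normally distributed. That rate is only a rough guide here, where the libraries of this group held 0 to 11 reads. The 20 groups examined were 10 groups for each of 2 correlated IDs, so they were not independent. The same library had the highest medulla-high list level of its group, 2.04, and ENSRNOG00000002602 was at 0.0966 FPKM there. The part of the list level was not tested.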

How the results depend on the processing

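Over 36 results of the pair, 554 values were recomputed, 340 of them leaving out 1 library: 535 kept their direction and their side of the threshold, or moved by less than the spread between replicates, 13 lost a call, 3 gained one, 1 reversed and 2 moved. A further sign change occurred in 20 values that were never called, counted among the 535. For ENSRNOG00000019481, the medulla difference of MK-8722 10 from 1 mpk was 1.10 without a filter (adjusted p = 0.0645), 1.07 when relative depth was added (0.0608), 0.90 with the replicate block (0.138), where numbers do not pair the libraries (r -0.207 to 0.068), and 0.99 to 1.19 leaving out 1 library (0.0271 to 0.103). Its medulla excess over cortex at 1 mpk was 1.54 with a pseudocount of 0.1 (0.0231) and 0.64 in the 2 groups alone (0.0484). With that pseudocount its medulla difference of obese vehicle from lean was -5.42 and of enalapril from obese vehicle 1.93. For ENSRNOG00000002602, medulla 1 mpk against enalapril ranged from -1.35 to -0.83 leaving out 1 library, the 1 mpk tissue difference was 0.93 with relative depth (0.0653), and 1 mpk against obese vehicle in medulla ranged from -0.37 to 0.053, the latter without obese vehicle replicate 3. Over the 15 treated cortex libraries, chosen after seeing the data, r between the IDs was 0.394 (p = 0.141 by permutation) and 0.521 on deviations from the group means (permutation p = 0.05). The cause was not tested. The replicate block changed no other call of the pair. The filter left no cortex value. The share of IDs called varied more, also against obese vehicle: in medulla 10.6% under enalapril became 0.0493% without obese vehicle replicate 7, 5.92% between the MK-8722 doses became 0.507% in the 2 groups alone and 11.2% without 10 mpk replicate 6, 7.12% at 1 mpk against enalapril became 0.409% with the replicate block and 13.9% without enalapril replicate 3, 2.73% at 10 mpk against enalapril became 0.338% in the 2 groups alone, and 35.5% in cortex obese vehicle against lean became 17.6% with relative depth and 61.1% with the filter. Depth limits the cortex values, most of them worth a few reads.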
